A study of Mus musculus with 12 samples.

Results

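The genes described here encode the enzymes that work against Polycomb repression at lysine 27 of histone H3 (H3K27) and the trithorax-type methylases of lysine 4 (H3K4). There are 10 of them: Kdm6a, Kdm6b, Kmt2a, Kmt2b, Kmt2c, Kmt2d, Crebbp, Ep300, Wdr5 and Men1. They were picked by gene symbol for what their products do, and are 10 of the 17885 genes in the table of control and Eed iKO libraries and 10 of the 21915 genes in the hair cycle table.

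Polycomb repressive complex 2 (PRC2), of which EED is a core subunit, places trimethylation on H3K27 and holds developmental genes silent. KDM6A and KDM6B remove that methylation, and CREBBP (CBP) and EP300 (p300) acetylate the same lysine, so that a residue carrying acetylation cannot be methylated. The MLL methylases KMT2A to KMT2D place methylation on H3K4 at promoters and enhancers, with WDR5 as a subunit that all of them use and MENIN, the product of Men1, as a partner of KMT2A and KMT2B. In hair follicle stem cells (HFSCs) many silent genes carry the Polycomb mark, some of them together with H3K4 methylation, which is why the opposing enzymes are of interest when PRC2 is removed or when the follicle enters growth.

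The data are RNA-seq of HFSCs sorted from mouse back skin by CD34 and EpCAM on the surface, high α6-integrin and no Sca1, in 12 libraries of 3 for each of 4 groups, all labelled C57BL/6J. Control mice (labelled wild type) and Eed iKO mice (labelled Eed -/-) were taken at postnatal day 70 (P70). The Eed iKO mice were K15-CrePGR; Eed fl/fl, and RU-486 on the shaved back skin for a week from P50 switched the Cre on in Krt15-expressing bulge cells, so a sorted cell in which Cre had not acted still carries Eed. Control skin received the solvent, ethanol, without RU-486, so drug and genotype cannot be told apart in that comparison. Anagen mice, wild type and with growing follicles, were taken at P28 to P30, and telogen mice, wild type and with resting follicles, at P50 to P52. Stage and age therefore cannot be told apart in the hair cycle comparison, both sexes were used, and the labels do not say how many animals went into a library. Normalized counts, which are reads per gene divided by a size factor of the library, were normalized separately in the Eed iKO table and the hair cycle table, so levels are compared within a table and never between them.

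Reads in protein-coding genes numbered 33269583 to 57063586 per library in the Eed iKO table. Whole reads could not be recovered from the hair cycle table, where depth is unknown and the normalized counts sum to 11370984 to 13186648 per library. Eed itself, as a value for the whole gene, showed no fall. Its normalized counts were 1084, 1249 and 950 in control against 933, 1361 and 1002 where the label is Eed iKO (log2 fold change -0.01, SE 0.22, limma adjusted p = 0.993), so every direction given for Eed iKO is that of the libraries so labelled. Which exons the deletion removes is not given in the sources used here, and a value over the whole gene does not check the labels if the other exons are still transcribed. Mki67, a marker of dividing cells, was 639, 2543 and 928 in control against 6125, 6301 and 609 in Eed iKO, with the third Eed iKO library below all control libraries. All 10 genes of the list of dividing cells had log2 fold changes above 0, with a median of 0.89, and none was called. Their summed level was 6974 to 8797 in control and 16576, 17929 and 7638 in Eed iKO. The groups did not overlap for Mcm2 and Cdk1. Summed markers of bulge HFSCs spanned 1341200 to 1568100 in control and 1475300 to 1717100 in Eed iKO. Most of that sum is Krt15 and Krt5, with control means of 575000 and 563670. Of the 10 markers, 3 had log2 fold changes below 0, and none had a limma adjusted p under 0.05. Those 3 were Nfatc1 (-0.39), Cd34 (-0.33) and Lgr5 (-0.24), and the largest above 0 were Krt14 (0.82), Itga6 (0.41) and Lhx2 (0.28). Ly6a, which encodes the excluded Sca1, stayed between 27.1 and 170 in the 6 control and Eed iKO libraries.

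None of the 10 genes passed the test in the libraries labelled Eed iKO, and 1 of them, Kmt2b, passed it between the stages of the hair cycle, with lower values in anagen. Genes are called where the Benjamini-Hochberg adjusted p of limma, over all genes tested in that table, is under 0.05. All 10 were detected in every library and passed the filter on low values in both tables. For Eed iKO against control, 4 of 15008 genes were called, which is 0.0267% of those tested, so a count of 0 among 10 genes is near that background. Between anagen and telogen, 1556 of 13457 genes, or 11.6%, were called. Of all genes tested, 4.35% were called with lower values in anagen and 7.22% with higher values. With 1 call among 10, the genes were close to the background share. The limits in the study's methods combine an unadjusted p under 0.05 with a size of the log2 fold change. That size is over 1.5 for the Eed deletion and over 2 for the stages. Put to the limma values here, and not to the study's own DESeq2 results, these limits called none of the 10 in either comparison. They called 1.75% and 5.1% of all genes. A figure legend of the study gives another rule for the Eed deletion, an absolute fold change of at least 1.5 with an adjusted p under 0.05.

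**Figure D1:**
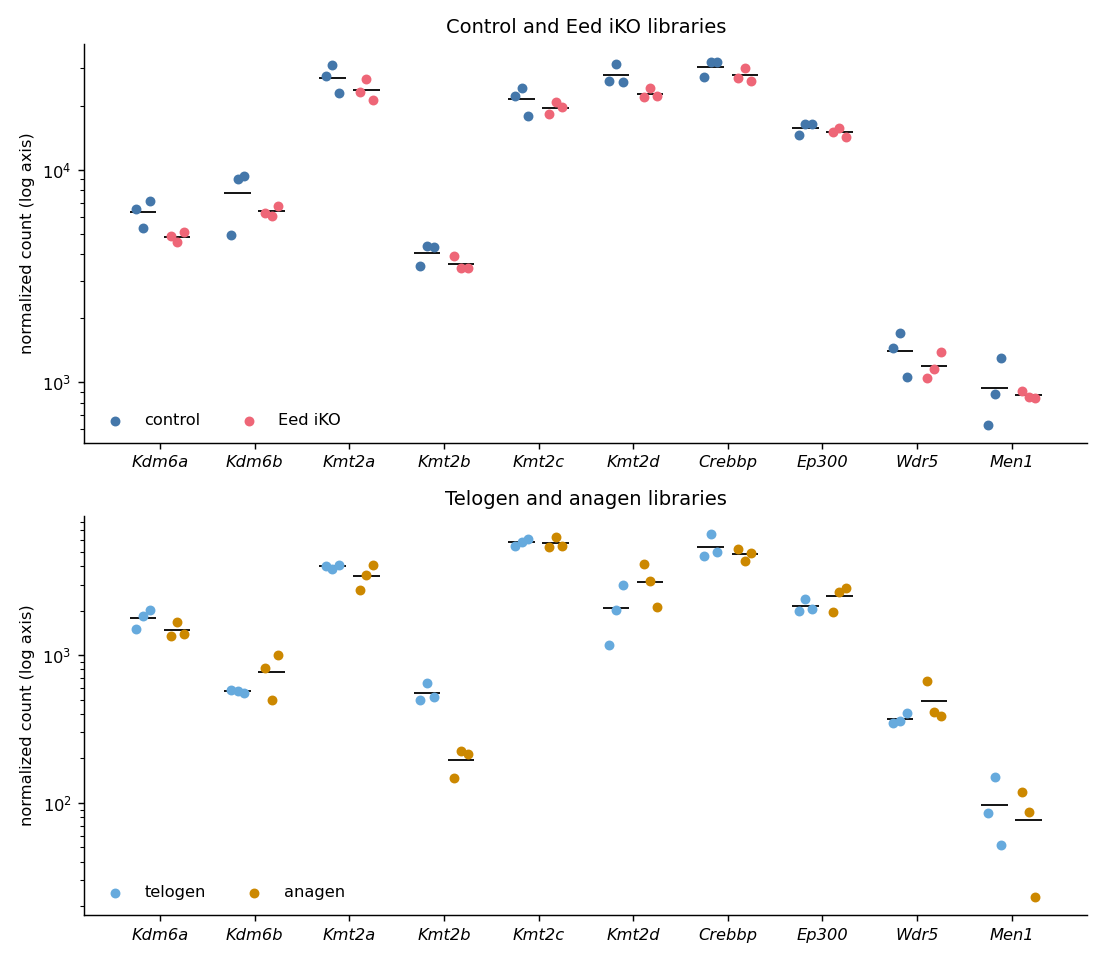
Normalized counts (log axis) of the 10 genes in every library, with control and Eed iKO in the upper panel and telogen and anagen in the lower panel, 3 points per gene and group and a black line at each group mean. The anagen values of Kmt2b, 147 to 226, lie apart from and below the telogen values of 499 to 651, and the values of the other 9 genes overlap between the stages.

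Kdm6a encodes UTX, an H3K27 demethylase that is also a subunit of the KMT2C and KMT2D complexes. The gene (ENSMUSG00000037369.17) lies on the X chromosome, at chrX:18162575-18279936 on the plus strand of GRCm38, escapes X inactivation in the mouse, and has a Y-linked relative, Uty. The longest stretch shared by the coding sequences of their longest transcripts is shown, and untranslated regions were not searched for it. It bears on how reads of the pair are told apart in libraries that hold male cells. Capitals mark the 61 bases that are identical, which lie within exon 13 of each gene (bases 1226 to 1286 of the Kdm6a coding sequence and 1205 to 1265 of that of Uty), at chrX:18246980-18247080 on the plus strand and chrY:1169152-1169252 on the minus strand with the flanks shown.
Kdm6a: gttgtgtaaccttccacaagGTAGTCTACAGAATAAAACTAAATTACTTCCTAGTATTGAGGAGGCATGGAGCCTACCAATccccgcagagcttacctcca
Uty: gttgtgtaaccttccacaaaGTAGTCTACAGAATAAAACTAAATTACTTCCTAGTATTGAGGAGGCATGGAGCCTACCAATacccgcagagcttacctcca
Over the whole longest transcript, 70 of the 5905 words of 31 bases in Kdm6a, or 1.2%, also occur in Uty, so nearly all of the sequence of Kdm6a separates it from its relative.

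Kdm6a was the gene of the 10 with the lowest unadjusted p in the Eed iKO comparison, and it did not pass the test. Its normalized counts were 6527, 5296 and 7081 in the control libraries and 4892, 4550 and 5063 in the Eed iKO libraries. Every Eed iKO value lay under every control value. This gave a log2 fold change of -0.37 (SE 0.15, 95% interval -0.70 to -0.05, n = 3 per group), with an unadjusted p of 0.0292 and an adjusted p of 0.276 by limma. Across all genes tested, 14.7% had an unadjusted p under 0.05 and 6.33% did so with lower values in Eed iKO.

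Y-linked genes were read in the same comparison, and none of the 4 passed the test. The summed level of Uty, Ddx3y, Eif2s3y and Kdm5d was 4228 to 5871 in control and 5470 to 7040 in Eed iKO, ranges that overlap, and all 4 genes were detected in all 12 libraries. All 4 had log2 fold changes above 0, and the largest was that of Ddx3y, an RNA helicase, at 0.70 (SE 0.21, limma adjusted p = 0.167). With the summed Y-linked level as a covariate, the log2 fold change of Kdm6a was -0.19 (adjusted p = 0.673). Other genes of the set, none of them on the X chromosome, moved as well in that fit. Kmt2a went from -0.19 to -0.43, Kmt2c from -0.12 to -0.31, Kmt2d from -0.28 to -0.41 and Wdr5 from -0.21 to -0.41. Crebbp and Ep300 also moved further below 0, while Kdm6b and Kmt2b moved towards 0 and Men1 turned above it. The median of the set went from -0.18 to -0.19. Without the third Eed iKO library, which had the lowest Mki67 value of the 6, the log2 fold change of Kdm6a was -0.41 (adjusted p = 0.255). Summed markers of hair matrix, root sheath and shaft were 4182 to 5574 in control and 3595 to 4047 in Eed iKO. All 4 of the genes found had log2 fold changes below 0, and none was called. Most of that sum is Trps1, a transcription factor gene, at 4070 to 5263 in control and 3376 to 3974 in Eed iKO (log2 fold change -0.34, limma adjusted p = 0.318). Their part in the value of Kdm6a was not tested.

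In the hair cycle table, Kdm6a was 1490, 1837 and 2023 in telogen and 1343, 1681 and 1399 in anagen. The groups overlapped, with the telogen 3 library the highest and the anagen 1 library the lowest. Anagen against telogen gave a log2 fold change of -0.27 (SE 0.20, 95% interval -0.71 to 0.17, limma adjusted p = 0.418).

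Kdm6b encodes JMJD3, the other H3K27 demethylase, which is known as an inducible gene. It lies at chr11:69398508-69413675 on the minus strand, and 4.1% of its exon bases overlap exons of Kdm6bos on the opposite strand, whose reads cannot be told apart from those of Kdm6b if the counting ignored strand. Its values were 4920, 8989 and 9286 in control and 6252, 6074 and 6762 in Eed iKO. The first control library stood below all the others and the remaining control libraries stood above all Eed iKO libraries, so the log2 fold change of -0.23 had an SE of 0.22 (adjusted p = 0.681). It rested on single control libraries, being -0.52 (unadjusted p = 0.00427, adjusted p = 0.155 by limma) without the first, -0.09 without the second and -0.07 without the third. In telogen the values lay within 557 to 577, the tightest of any of the 10 genes, with a CV of 1.80%. In anagen they were 818, 494 and 994, a CV of 33.0%, and the anagen 2 library fell below all of the telogen libraries. Anagen against telogen came to a log2 fold change of 0.38 (SE 0.27, adjusted p = 0.405), or 0.67 (adjusted p = 0.194) without anagen 2 and 0.16 without anagen 3.

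Kmt2b was the gene that differed between the stages. It encodes MLL2, the closest relative of KMT2A, known for H3K4 trimethylation at promoters, bivalent ones included. The gene (ENSMUSG00000006307.16) lies at chr7:30568858-30588726 on the minus strand, with a longest transcript of 8469 bases in 37 exons. Its normalized counts were 499, 651 and 524 in telogen and 147, 226 and 214 in anagen. The highest anagen library was under the lowest telogen library, and the spread within either stage was smaller than the gap between them. The log2 fold change was -1.52 (SE 0.28, 95% interval -2.14 to -0.91, unadjusted p = 2.02e-04, adjusted p = 0.00625), with telogen 2.87 times as high as anagen on the fitted scale. Kmt2b was lower in anagen in every fit that left out a library in turn, with log2 fold changes from -1.64 to -1.33 and adjusted p from 0.00791 to 0.039. Its log2 fold change does not reach the limit of 2 that the study's methods used.

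Dividing cells differed between the stages as well. All 10 proliferation genes were higher in anagen, their summed level being 2305 to 3665 in telogen and 23894 to 36805 in anagen, and Mki67 rose by 5.10 on the log2 scale (limma adjusted p = 1.95e-06). The summed melanocyte markers were 81.3 to 160 in telogen and 437 to 803 in anagen. Most of that sum is Dct, at 61.2 to 134 in telogen and 387 to 709 in anagen (log2 fold change 2.51, limma adjusted p = 0.00187). Dct was the 1 gene called of the 4 tested in that list. The summed markers of hair matrix, root sheath and shaft were 1571 to 1769 in telogen and 2783 to 3293 in anagen. No gene of these lists was at 0 in all libraries of a stage. Nearly all of the last sum is Trps1, at 1544 to 1765 in telogen and 2597 to 3190 in anagen (log2 fold change 0.85, limma adjusted p = 0.0132). The keratin genes Krt31, Krt35 and Krt71 stayed under 100 in every library of both stages. The summed markers of fibroblasts, immune cells, endothelium, differentiated epidermis and sebaceous gland overlapped between the stages, but single markers among them were called. The fibroblast genes Col1a1 (45.5 to 89.9 in telogen, 214 to 419 in anagen, log2 fold change 2.06, limma adjusted p = 0.00928) and Dcn (0 to 1.47 and 15.7 to 38.5, 4.05, adjusted p = 0.0106) rose, 2 of 4 tested, and the sebaceous gene Awat2 fell (47.5 to 60.7 and 5.47 to 11.5, -2.64, adjusted p = 0.0154), 1 of 3 tested. Of the genes of the sort, Cd34 fell (log2 fold change -1.21, limma adjusted p = 0.00382) and Itga6, which encodes α6-integrin, rose (0.97, adjusted p = 0.0144) in anagen. Summed markers of bulge HFSCs were 236500, 626710 and 531510 in telogen and 551500 to 663760 in anagen. The first telogen library was the low one, with Krt15 at 142410 against 416770 and 350440 in the other telogen libraries. The part of these differences in the value of Kmt2b was not tested, and fewer cells of a type and less RNA per cell cannot be told apart in bulk libraries.

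The longest identical stretch of the coding sequences bears on whether reads of Kmt2b could be mistaken for those of its closest relative. It is shown in capitals with 20 bases on either side. The stretch is 20 bases long and lies within exon 14 of Kmt2a (chr9:44833934-44833993, minus strand) and exon 15 of Kmt2b (chr7:30580466-30580525, minus strand).
Kmt2a: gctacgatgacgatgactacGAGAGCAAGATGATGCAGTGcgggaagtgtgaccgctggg
Kmt2b: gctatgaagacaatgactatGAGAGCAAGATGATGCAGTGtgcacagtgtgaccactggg
Only 3 of the 8439 words of 31 bases in the longest Kmt2b transcript, or 0.04%, occur in a transcript of any other gene. The coding sequences of Kmt2a and Kmt2b share no word of 31 bases.

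In the libraries labelled Eed iKO, Kmt2b was 3911, 3458 and 3449, against 3521, 4371 and 4306 in control. The groups overlapped through the first library of each. Their log2 fold change was -0.17 (SE 0.15, 95% interval -0.50 to 0.16, adjusted p = 0.637). Whether the change of Kmt2b differs between the hair cycle and the loss of Eed was not tested, since the tables were normalized separately.

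Kmt2a encodes MLL1, a mammalian relative of fly trithorax, and is a long gene, with a longest transcript of 16470 bases at chr9:44803355-44881296 on the minus strand. Its telogen values of 3815 to 4086 were close together and its anagen values were 2738, 3483 and 4092, so the first and second anagen libraries stood below the telogen range and the third just above it, with a log2 fold change of -0.23 (SE 0.19, adjusted p = 0.479). In Eed iKO the values were 21324 to 26773 and in control 22862 to 31017, which overlap (log2 fold change -0.19, SE 0.16, adjusted p = 0.615). Of its exon bases, 2.3% overlap AC061963.1 on the opposite strand.

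Kmt2c encodes MLL3, an enhancer methylase whose complex holds KDM6A, and lies at chr5:25271798-25498783 on the minus strand. It was 5434 to 6078 in telogen and 5340 to 6318 in anagen. Its log2 fold change of -0.02 was the smallest of the 10 between the stages, and the 95% interval of -0.39 to 0.35 bounds a difference in either direction. In control it was 17839 to 24339 and in Eed iKO 18258 to 20727, with all Eed iKO values inside the control range (log2 fold change -0.12, SE 0.15, adjusted p = 0.75).

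Kmt2d encodes MLL4, the enhancer methylase paired with KMT2C, and has the longest transcript of the 10 (19823 bases, chr15:98831669-98871204, minus strand). In control its values were 26173, 31402 and 25967, and in Eed iKO 21892, 24163 and 22311. All Eed iKO values were under all control values, as for Kdm6a. Its log2 fold change of -0.28 (SE 0.14, 95% interval -0.59 to 0.02) did not pass the test (unadjusted p = 0.0606, adjusted p = 0.362 by limma). Groups that do not overlap were found for 20.2% of all genes tested in this table, and for 10% with lower values in Eed iKO, so 2 of 10 genes is not far from the background.

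Kmt2d was also the MLL gene that varied most between libraries of the hair cycle. It was 1179, 2031 and 3001 in telogen and 4100, 3173 and 2122 in anagen. The third library of each stage fell on the side of the other stage, and the SDs were 912 and 990. Its log2 fold change of 0.65 (SE 0.33, 95% interval -0.08 to 1.38, adjusted p = 0.236) did not pass the test, and it ran from 0.29 without telogen 1 to 0.97 without telogen 3 (limma adjusted p = 0.543 and 0.0884).

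The change of Kmt2b can be set against each relative within a library, as the difference of their log2 values. Kmt2b minus Kmt2a was -2.84 ± 0.25 (SD, n = 3) in telogen and -4.13 ± 0.17 in anagen. Kmt2b minus Kmt2c went from -3.38 ± 0.20 to -4.88 ± 0.26, and Kmt2b minus Kmt2d from -1.80 ± 0.65 to -3.97 ± 0.75. In all 3 differences the libraries of the stages did not overlap. All 3 hold the same Kmt2b values, which had already been called, and were chosen after seeing the data. They are therefore no separate evidence of the fall of Kmt2b. The exact two-sided permutation test gave p = 0.1 for each, the smallest that 3 against 3 libraries allow, and an adjusted p of 0.333 over the 10 differences compared, so this test could not reach 0.05. The same 3 differences overlapped between control and Eed iKO, with p = 0.9, 0.8 and 0.5 by the same exact test.

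**Figure D2:**
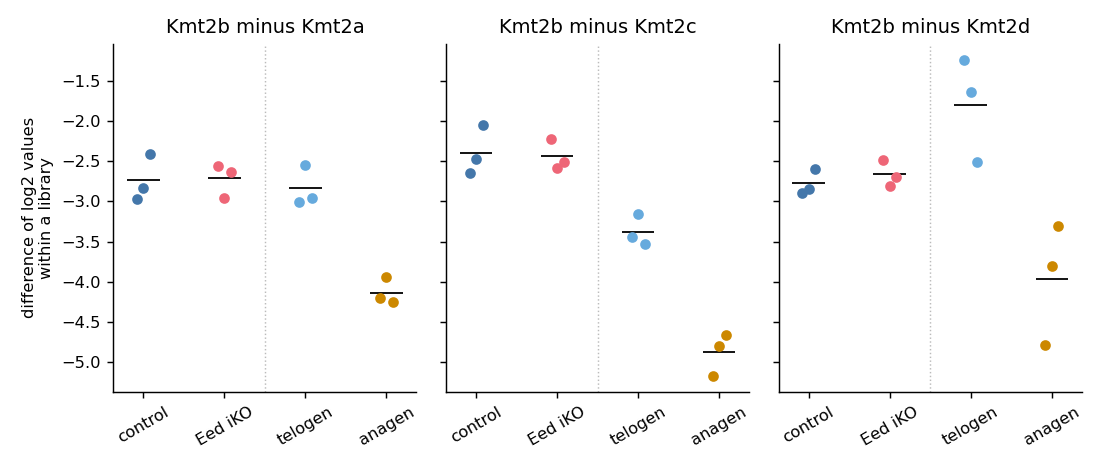
Difference of log2(normalized count + 1) between Kmt2b and Kmt2a, Kmt2c or Kmt2d within each library, 3 points per group with a black line at the mean, and a dotted line between the 2 tables that were normalized separately. The anagen points lie under all telogen points in each panel, and the control and Eed iKO points overlap.

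The H3K27 acetylases are a pair of close relatives. Crebbp lies at chr16:4081328-4213997 on the minus strand and Ep300 at chr15:81585351-81652077 on the plus strand. The longest identical stretch of their coding sequences, in capitals, is 29 bases within exon 18 of each (chr16:4108044-4108112, minus strand, and chr15:81631777-81631845, plus strand). It is shown because it is shorter than a word of 31 bases, so the 2 coding sequences share none.
Crebbp: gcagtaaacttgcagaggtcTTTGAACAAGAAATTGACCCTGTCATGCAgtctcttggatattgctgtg
Ep300: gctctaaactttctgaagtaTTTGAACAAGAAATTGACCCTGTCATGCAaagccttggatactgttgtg
Crebbp was 27426, 32048 and 32062 in control and 26951, 30241 and 26014 in Eed iKO, and Ep300 was 14482, 16329 and 16422 in control and 15033, 15728 and 14219 in Eed iKO. For both genes the first control library was low and the groups overlapped. The log2 fold change was -0.14 (SE 0.14, adjusted p = 0.689) for Crebbp and -0.07 (SE 0.13, adjusted p = 0.84) for Ep300, which had the smallest SE of the 10 in this table.

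Between the stages, Crebbp was 4687 to 6555 in telogen and 4311 to 5223 in anagen, with a log2 fold change of -0.16 (95% interval -0.58 to 0.25, adjusted p = 0.62). Ep300 was 1990 to 2401 in telogen and 1943, 2683 and 2861 in anagen, where the first library was the lowest of all 6 (log2 fold change 0.20, 95% interval -0.25 to 0.65, adjusted p = 0.563). Ep300 minus Crebbp within a library was -1.32 ± 0.11 in telogen and -0.96 ± 0.41 in anagen. Those values overlapped (exact permutation p = 0.3, adjusted p = 0.5).

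The shared subunits had the lowest counts of the 10 in the Eed iKO table. Wdr5, the WD-repeat subunit that all MLL complexes use, lies at chr2:27515157-27536535 on the plus strand. It was 1442, 1708 and 1055 in control and 1046, 1158 and 1383 in Eed iKO, overlapping, with a log2 fold change of -0.21 (SE 0.22, adjusted p = 0.707). In telogen it was 346 to 405 and in anagen 664, 415 and 385, where the first anagen library alone was far above telogen and the third fell inside the telogen range (log2 fold change 0.36, SE 0.28, adjusted p = 0.434).

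Men1 lies at chr19:6334979-6340891 on the plus strand and had 643 to 1438 reads per library in the Eed iKO table, the fewest of the 10. It was 631, 881 and 1304 in control and 913, 854 and 839 in Eed iKO. The Eed iKO values fell inside the control range, with a CV of 4.48% against 36.2% in control (log2 fold change -0.05, SE 0.27, adjusted p = 0.951). In the hair cycle it was 86.2, 150 and 52.3 in telogen and 119, 87.5 and 23.2 in anagen, and the third anagen library was the lowest of all 6. The interval of -1.88 to 0.91 around its log2 fold change of -0.48 is the widest of the 10, and it includes both 0 and the estimate of Kmt2b.

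**Figure D3:**
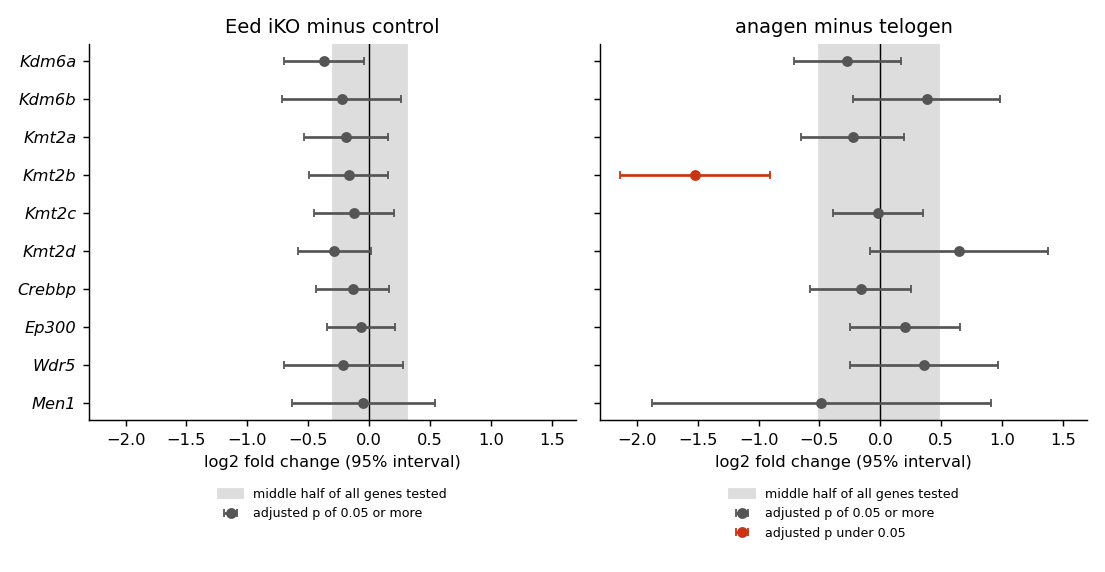
Log2 fold changes of the 10 genes with 95% intervals from limma, for Eed iKO minus control and anagen minus telogen, over a grey band that spans the interquartile range of all genes tested. Only Kmt2b in the hair cycle comparison (red, -1.52) has an adjusted p under 0.05, and all 10 estimates for Eed iKO lie below 0 with intervals that, except for Kdm6a, include it.

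Over the set, all 10 log2 fold changes were below 0 for Eed iKO against control, from -0.37 to -0.05, with a median of -0.18. The median of all 15008 genes tested was -0.001, and 50.1% of them were below 0. In this table, however, log2 fold changes followed transcript length. With genes split by length into 10 bins of near equal size, the median ran from 0.37 in the shortest bin to -0.13 in the longest, where 66.6% of genes were below 0. Crebbp, Ep300 and the MLL genes Kmt2a to Kmt2d are in the longest bin, Kdm6a and Kdm6b in bin 9, and Men1 and Wdr5 in bin 5. With the length trend removed within each library, the median of the 10 was -0.05, the log2 fold changes of Kmt2c and Ep300 were 0.04 and 0.06, and that of Kdm6a was -0.28 with an unadjusted p of 0.0896 (adjusted p = 0.443 by limma). Because the sign of Kmt2c and Ep300 depends on this step, no direction is given for the set.

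**Figure D4:**
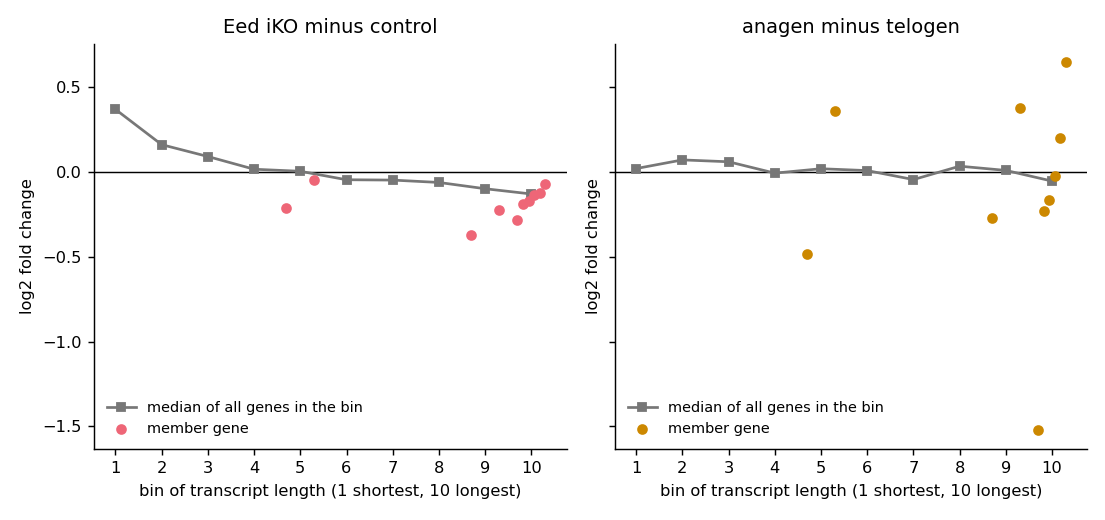
Median log2 fold change of all genes in each of 10 bins of transcript length (grey squares) and the log2 fold changes of the 10 genes in their own bin (coloured points, spread sideways so that they can be seen). For Eed iKO the medians run from 0.37 to -0.13 and 8 of the 10 genes lie below the median of their bin, while for anagen against telogen the medians stay between -0.05 and 0.07.

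Between anagen and telogen, 6 of the 10 log2 fold changes were below 0, with a median of -0.09 against 0.01 over all 13457 genes tested, 49.4% of which were below 0. The medians by length stayed between -0.05 and 0.07, and Kmt2b kept a log2 fold change of -1.48 (limma adjusted p = 0.00635) with the length trend removed. In that fit the median of the 10 turned to 0.04, and Kmt2d had a log2 fold change of 0.86 (unadjusted p = 0.0333, adjusted p = 0.142 by limma). Without that step, Kmt2b alone of the 10 had an unadjusted p under 0.05, which 27.3% of all genes had. Groups that did not overlap were found for 1 of the 10, against 33.3% of all genes, and 15.2% with lower values in anagen.

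Per kilobase of the longest transcript, levels can be compared between genes of the same table. In control, Crebbp was the highest at 2820 ± 247 normalized counts per kb (SD, n = 3), followed by Kmt2a at 1647 ± 248, Ep300 at 1646 ± 114, Kmt2c at 1432 ± 221, Kmt2d at 1405 ± 155, Kdm6b at 1162 ± 367 and Kdm6a at 1062 ± 154. A lower group held Wdr5 at 485 ± 114, Kmt2b at 480 ± 55.9 and Men1 at 316 ± 114 per kb. Only the steps from Crebbp to Kmt2a and from Kdm6a to Wdr5 separated neighbours whose libraries did not overlap. The Eed iKO libraries kept Crebbp first at 2563 ± 205 per kb and Kmt2b, Wdr5 and Men1 last at 426 ± 31.2, 414 ± 59.4 and 292 ± 13.1 per kb. Neighbours that overlapped there were Ep300 and Kmt2a, Kmt2a and Kmt2c, and Kmt2b and Wdr5. With the union of all exons as the length, Crebbp stayed first and the same 3 genes stayed last, and the order in between changed.

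In telogen, Crebbp was again the highest at 501 ± 92.3 per kb, and Kmt2c was next at 386 ± 21.6. Kdm6a followed at 300 ± 45.5, Kmt2a at 241 ± 8.58 and Ep300 at 224 ± 23.2 per kb. Wdr5, Kmt2d, Kdm6b and Kmt2b lay at 128 ± 10.9, 104 ± 46.0, 85.3 ± 1.53 and 65.9 ± 9.62 per kb, and Men1 was the lowest at 32.4 ± 16.7. The libraries of Kmt2a and Ep300, of Wdr5 and Kmt2d, and of Kmt2d and Kdm6b overlapped, and those of the other neighbours did not. In anagen Crebbp and Kmt2c led at 444 ± 42.6 and 381 ± 35.8 per kb, with overlapping libraries, and the neighbours from Ep300 down to Kdm6b overlapped as well. Kmt2b was level with Men1 at the bottom, at 23.1 ± 4.98 against 25.7 ± 16.4 per kb, with overlapping libraries. Kdm6b, the next gene above them at 116 ± 38.1 per kb, did not overlap with Men1. With the union of all exons as the length, Crebbp and Kmt2c stayed first and second in both stages, while the order below them changed. In telogen Kmt2a then lay above Kdm6a, at 238 ± 8.48 against 213 ± 32.2 per kb, so that step depends on the length used.

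Genes that share the pathway with the 10 were read from the same fits. In the Eed iKO comparison none of the 61 tested genes in 7 lists passed the test. The lists were other subunits of the MLL and SET1 complexes, H3K4 demethylases, other demethylases of the JmjC family, other histone acetylases, readers of acetylation with partners of CBP and p300, trithorax remodellers, and PRC2 itself. The gene with the lowest unadjusted p in each list is given as a value. Smarcc1, a BAF remodeller subunit, had a log2 fold change of 0.54 (SE 0.15, limma adjusted p = 0.148) and Phf8, a JmjC demethylase, one of -0.40 (SE 0.15, adjusted p = 0.261). The nuclear receptor coactivator Ncoa1 was at -0.27 (SE 0.14, adjusted p = 0.374), the SET1 subunit Wdr82 at 0.29 (SE 0.14, adjusted p = 0.383) and the histone acetylase Hat1 at 0.35 (SE 0.20, adjusted p = 0.439). The H3K4 demethylase Kdm5c was at -0.28 (SE 0.16, adjusted p = 0.444) and the PRC2 methylase Ezh1 at -0.22 (SE 0.15, adjusted p = 0.516).

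Between anagen and telogen, 5 of the 61 genes passed the test, 1 higher and 4 lower, or 8.2% against 11.6% of all genes tested. Hat1, which acetylates newly made histone H4, rose in anagen, from 425 to 490 in telogen to 1021 to 1639 (log2 fold change 1.5, SE 0.24, limma adjusted p = 0.0027). Kat2b, the acetylase PCAF, fell, with values of 1663, 631 and 954 in telogen and 359, 419 and 450 in anagen (log2 fold change -1.29, SE 0.32, adjusted p = 0.0274). All anagen values of Kat2b were under all telogen values even though the telogen libraries differed widely. These were 1 higher and 1 lower of 8 acetylases other than Crebbp and Ep300, where 7.22% of all genes were called higher and 4.35% lower.

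The other called genes of the pathway were lower in anagen. Phf8, which removes methylation from H3K9 and H4K20, fell from 1037 to 1118 in telogen to 491 to 765 (log2 fold change -0.90, SE 0.24, limma adjusted p = 0.033), and Kdm4c, an H3K9 demethylase, fell from 1002 to 1282 to 600 to 769 (-0.75, SE 0.22, adjusted p = 0.047), 2 of 9 other JmjC genes. Cited2, a partner that binds CBP and p300, fell from 1689 to 2460 to 984 to 1324 (-0.89, SE 0.22, adjusted p = 0.0234), 1 of 8 tested genes of its list.

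No gene of the remaining lists passed the test between the stages. Among 13 other subunits of the MLL and SET1 complexes the lowest p was that of Hcfc1, a host cell factor of those complexes (log2 fold change 0.61, SE 0.19, limma adjusted p = 0.0651), and the median was 0.18 against 0.01 over all genes. Among 13 trithorax remodellers it was that of the BAF subunit Smarcb1 (0.56, SE 0.22, adjusted p = 0.126), with a median of 0.29. Kdm1a led the 6 H3K4 demethylases (-0.36, SE 0.25, adjusted p = 0.379). Among the 4 PRC2 genes Ezh1 was at -1.0 (SE 0.34, adjusted p = 0.0848), with telogen values of 635, 1526 and 1740 that overlapped the anagen values of 527 to 698 through the first telogen library.

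**Figure D5:**
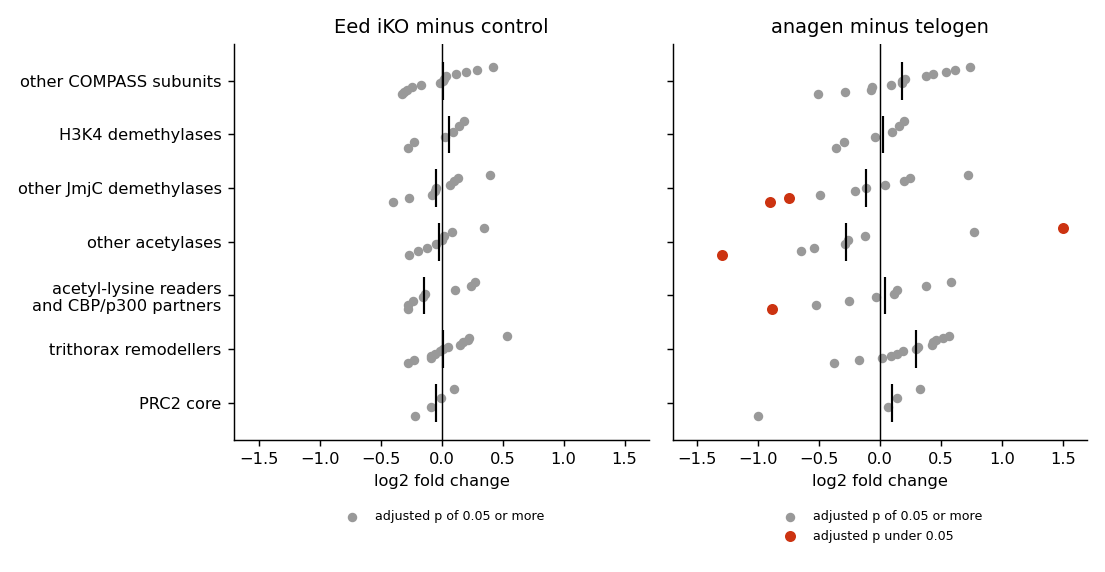
Log2 fold changes of the genes in 7 pathway lists outside the 10 genes, each point a gene, with a black line at the median of the list and red points for an adjusted p under 0.05. None is red for Eed iKO minus control, and 5 are red for anagen minus telogen: Phf8, Kdm4c, Kat2b and Cited2 to the left and Hat1 to the right.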

How the data were processed

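RNA was amplified and made into libraries with NuGEN Ovation kits and sequenced in pairs. The authors quantified reads with Kallisto 0.42.5 (version from the submitters' processing notes) against GENCODE vM20, and strand was not given in the sources used here. The deposited values are a signal per gene: counts that the authors scaled with a DESeq2 size factor for each library, in 1 table of protein-coding genes for control and Eed iKO and 1 for the hair cycle. Both tables also hold the authors' fold changes, standard errors and p-values, which were not used. Of the values of control and Eed iKO, 100% were whole multiples of 1 constant per library (tolerance 0.01), so whole reads were recovered. Of those of the hair cycle, 27.3% to 32.1% were, and reads were not recovered.

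Genes were matched by symbol, and 17879 and 21915 identifiers were found in GENCODE vM21 (GRCm38), the source of coordinates, lengths and the printed transcript sequences. In the data of control and Eed iKO, 25 symbols of other genes had been turned into dates. Each table was fitted alone with limma 3.58.1 (R 4.3.3) on log2(value + 1), with an intensity trend, after filterByExpr of edgeR at a minimum of 10, and p-values were adjusted by Benjamini and Hochberg over all genes tested. The fold changes are on the log2(value + 1) scale, which understates those of low genes. The scripts were tested on simulated data. Related genes were compared by exact two-sided permutation tests of log2 differences within libraries, chosen after seeing the data. DESeq2 1.42.0 and edgeR 4.0.16 on the recovered reads were alternatives. A figure legend of the study names biological replicates from at least 2 litters for the RNA-seq of control and Eed iKO. For the hair cycle another legend gives a number of animals for the anagen and telogen data, but not how they were divided over the libraries. The hair cycle p-values therefore measure the spread between libraries, which may be in part technical. The replicate numbers were not used to pair libraries, since no source ties them to a shared litter or day. The 10 genes and the lists were chosen with earlier results of these data known. All 10 genes were named in both comparisons, and of each pathway list the called genes, at most 4 by smallest p, or else the gene with the lowest unadjusted p.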

Additional observations from a re-analysis of the deposited data

How the results depend on the processing

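In the Eed iKO comparison none of the 10 genes was called under any alternative, and in the hair cycle comparison Kmt2b was called under all of them except the methods' limits on fold change with an unadjusted p, which left 0 of the 10. The count over all genes was less stable. For Eed iKO, where limma called 4 genes, it was 2 without the intensity trend, 2 with the length trend removed, 1 with the Y-linked covariate and 1 with a covariate of proliferation genes (added after seeing the data), 673 with DESeq2 against 5 with edgeR on the recovered reads, and 263 under the methods' limits. Leaving out a library gave 1 to 188, with 188 without the third Eed iKO library. With the replicate number as a block it was 424, and 311 with the block and the length trend removed, while none of the 10 genes was called under either. Deviations from the group means correlated by 0.04, 0.07 and 0.19 between same-numbered control and Eed iKO libraries. Control 2 and control 3 correlated best with the Eed iKO library of their own number, and control 1 with Eed iKO 2 (0.08). In the hair cycle the same-numbered correlations were -0.04, -0.07 and -0.03. These values do not settle whether control and Eed iKO libraries were paired. The numbers were not taken as pairs because no source ties them to a shared litter or day. For the hair cycle, where 1556 genes were called, it was 842 without the intensity trend and 686 under the methods' limits, and leaving out a library gave 590 to 1534, with 590, 675 and 826 without anagen replicates 1, 2 and 3. The block left 1224 genes called there, Kmt2b among them (adjusted p = 0.0106). The cause of these shifts was not tested.

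The sign of 3 genes changed. For Eed iKO, Kmt2c went to 0.043 and Ep300 to 0.056 with the length trend removed, with or without the block, and Men1 to 0.16 with the Y-linked covariate and from -0.30 to 0.22 with a library left out (0.22 without the third control library). For the hair cycle, Kmt2c went to 0.13 with the length trend removed, with or without the block, and from -0.098 to 0.024 with a library left out (above 0 without telogen 3, anagen 1 or anagen 3), and Men1 from -0.94 to 0.21 (0.21 without anagen 3). None of these passed the test before or after. The other genes kept their sign in all alternatives run. With 3 libraries per group, the SEs of the 10 genes were 0.13 to 0.27 for Eed iKO and 0.17 to 0.63 for the hair cycle, and that limits the differences that could be seen.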
